A study of Mus musculus with 24 samples.

Results

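The liver RNA of A/J mice, an inbred mouse strain, was compared across 3 diet regimens. All 699 RefSeq transcripts that the authors' deposited table lists as different between the 3 diets were taken, out of 20591 transcripts tested (3.39%). They were matched to 482 genes by RefSeq name, and 9 transcripts had no match. The A/J table and the matching table of C57BL/6J mice together held 862 genes. The A/J genes comprised 463 protein-coding genes, 9 transcribed pseudogenes, 8 long noncoding RNAs and 2 microRNA genes.

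Livers came from A/J mice of 3 regimens. Control mice received only control diet, over 16 weeks, and HF mice only high fat diet, also over 16 weeks. Reversal mice received the high fat diet for their first 8 weeks and were then returned to control diet for another 8. The diet tag of the Reversal libraries gives 16 weeks of control diet, and the protocol's 8 weeks were followed here. Each diet had 2 RNA libraries, 6 in all, among 24 libraries of the series, which also profiled C57BL/6J liver and open chromatin. The labels name no sex, no age and no separate animals, so the p-values cover the spread between the 2 libraries of a diet alone, and that spread may be technical. The depth per library is not stated in the sources used here, and the values of single libraries were not analysed here.

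In the liver, a high fat diet changes the supply of fatty acids, which are burned in mitochondria and peroxisomes, stored in lipid droplets or exported in lipoproteins. The nuclear receptor PPARα binds fatty acids and turns on genes of their oxidation, and transcription factors such as SREBP1c drive genes of their synthesis. The liver clock, a feedback loop between BMAL1 with its partners and the PER, CRY and REV-ERB repressors, sets daily rhythms in many metabolic genes. Growth hormone, through STAT5, keeps a set of liver genes higher in males or in females, among them the Mup genes of urinary proteins and several cytochromes P450.

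Each gene carried 2 deposited quantities that were used here. The first was a likelihood ratio statistic over all 3 diets, which sets the adjusted p (DESeq2, Benjamini-Hochberg). The second was a log2 fold change with its standard error (SE) between 2 of the diets, the contrast, and the table does not name these 2 diets. A positive or negative fold change therefore shows which genes moved together, and not which diet was higher. The part of the statistic that the contrast left unexplained was used to compute how far the third diet lay from the mean of the contrast diets, its departure, as a size without direction. Of the statistic, a share of 0% outside the contrast places the third diet midway between the contrast diets. At 25% it is level with 1 of them, above 25% it lies outside their range, and at 100% the contrast diets are level with each other. These values assume equal errors in the 3 diets, and they are descriptions computed from deposited columns.

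Promoter sequences of 4 genes show which letters stood upstream of the genes on which the results turn. They come from RefSeq on build GRCm38.p6, while the submitters' processing notes name mm9, and each gives the 250 bases before the gene's start site, 5′ to 3′ on the gene's strand. Capitals mark 2 motifs searched on both strands: the E-box CACGTG, which the clock's BMAL1 complex can bind, and the D-box TTATGTAA, which the DBP and TEF factors can bind. Per3, a period gene of the clock, is shown from chr4:151044666-151044915, minus strand, because it had the largest statistic of the core clock genes. Its D-box matches lie 205 to 198 and 158 to 151 bases before the start. Tef, a clock-driven transcription factor, is shown from chr15:81802423-81802672, plus strand, for 1 of its 2 start sites. Start sites of a gene were ranked by how many searched motifs they held, so this choice used the letters. The E-box of Tef lies 127 to 122 bases before the start. Cyp4a32, a fatty acid ω-hydroxylase and PPARα target, is shown from chr4:115600688-115600937, plus strand, as a contrast to them, and held neither motif. Coq10b, a coenzyme Q binding protein, is shown from chr1:55052520-55052769, plus strand, and was chosen after its letters were seen. It holds an E-box 78 to 73 bases and a D-box 162 to 155 bases before the start.
Per3: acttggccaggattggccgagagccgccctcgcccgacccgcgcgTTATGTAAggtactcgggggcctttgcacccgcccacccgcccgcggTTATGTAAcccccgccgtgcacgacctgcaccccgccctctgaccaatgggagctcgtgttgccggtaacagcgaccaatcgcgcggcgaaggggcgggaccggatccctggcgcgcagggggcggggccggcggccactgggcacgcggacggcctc
Tef: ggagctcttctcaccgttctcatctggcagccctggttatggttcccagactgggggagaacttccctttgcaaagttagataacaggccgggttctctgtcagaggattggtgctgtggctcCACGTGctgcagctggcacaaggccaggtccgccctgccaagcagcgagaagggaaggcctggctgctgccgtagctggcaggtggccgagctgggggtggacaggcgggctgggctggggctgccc
Cyp4a32: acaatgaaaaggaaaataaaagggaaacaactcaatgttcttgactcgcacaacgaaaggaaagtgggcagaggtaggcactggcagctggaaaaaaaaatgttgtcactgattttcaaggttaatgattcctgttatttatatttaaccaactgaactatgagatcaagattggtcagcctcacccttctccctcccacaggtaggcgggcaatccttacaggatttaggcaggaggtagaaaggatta
Coq10b: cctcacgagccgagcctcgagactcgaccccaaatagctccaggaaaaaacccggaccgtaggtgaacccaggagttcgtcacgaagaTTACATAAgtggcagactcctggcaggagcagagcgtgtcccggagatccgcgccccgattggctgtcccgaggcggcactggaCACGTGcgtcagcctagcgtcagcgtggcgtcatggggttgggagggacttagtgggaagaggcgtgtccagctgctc

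A promoter entry existed for 369 of the 482 genes. The windows searched ran from 250 bases before to 50 bases after the start. The E-box was found in 7.15% of all 32841 promoters and in 7.45% of the 470 promoters of A/J table genes. Of the 16 promoters of clock and clock output genes in the table, 5 held it (31.3%), in Bhlhe41, Ciart, Tef and Tspan4. The D-box was found in 0.938% of all promoters, and among the clock genes in Per3. The direct repeat DR1, which PPARα can bind with its partner RXR, was found in its consensus form in 0.0396% of all promoters and in none of the table's. A match is a run of letters and was not tested as a binding site.

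In many genes of the A/J table the larger part of the difference lay with the third diet. For 348 of the 482 genes (72.2%) over 50% of the statistic lay outside the contrast, and called transcripts of this kind made up 2.49% of all tested. By a stricter count, of genes whose deposited fold change was under 1 SE, there were 113. The contrast itself left out 0, by its 95% interval, in 131 genes with a positive and 124 with a negative fold change, against 0.864% and 0.884% of all transcripts tested. For the other 227 genes (47.1%; 1.65% of tested transcripts) the contrast diets were not distinguished and the third diet was apart. In 68 genes all 3 diets differed from each other and the third lay outside the range of the contrast diets, and in 21 genes all 3 differed with the third in between. In the remaining 166 genes the third diet was not distinguished from at least 1 of the contrast diets.

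Differences were mostly moderate in size. The median departure was 0.55 on the log2 scale, the median size of the deposited fold change 0.36, and the median SE 0.17. Between the 2 diets that lay farthest apart, the median difference was 1.74-fold, and 158 genes (32.8%) exceeded 1 on the log2 scale.

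**Figure D1:**
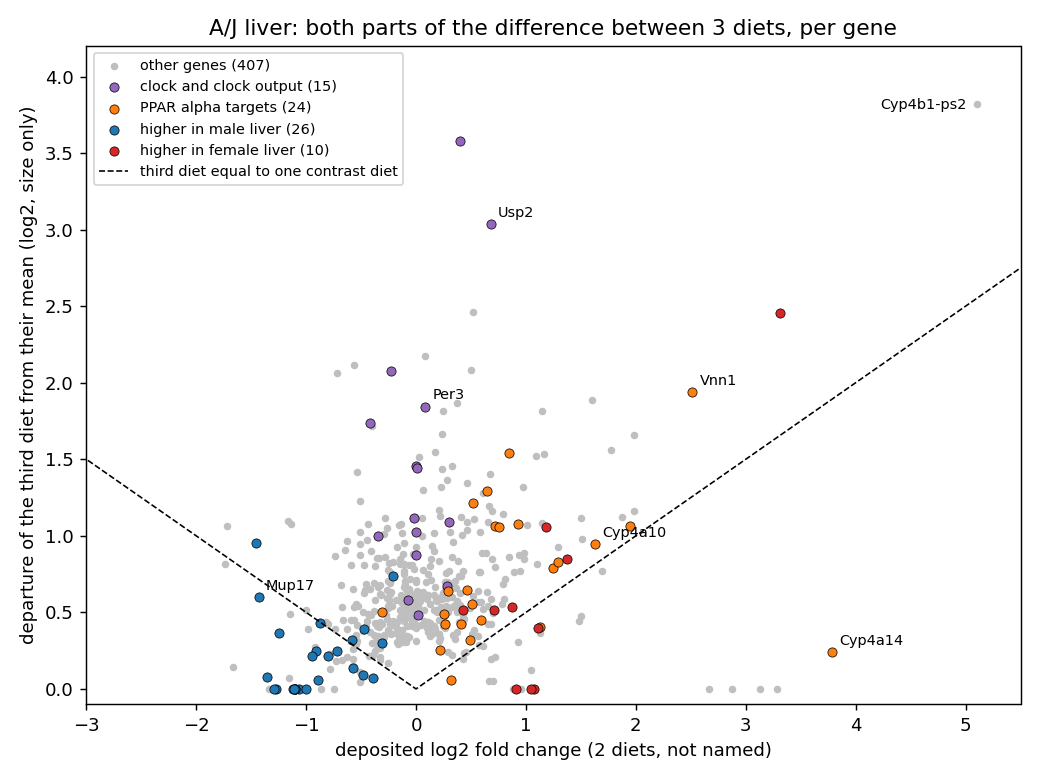
Each point is a gene of the A/J table, with the deposited log2 fold change between 2 unnamed diets on the horizontal axis and the size of the third diet's departure (log2) on the vertical axis. Dashed lines mark where the third diet equals 1 contrast diet; clock genes lie above them near a fold change of 0, most Mup genes and other genes higher in male liver lie at or under the left line, and 3 genes with large errors (H1f1, Serpina3j and Serpina3h) are outside the axes.

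Clock genes differed mainly through the third diet, and the contrast diets were not distinguished in all but 1 of them, Usp2. A contrast whose interval held 0 is called level from here on, which does not show that the 2 diets were alike. Of 30 listed core and output genes, 15 were in the table (50%, beside 3.39% of all transcripts tested). For 14 of the 15 genes the interval of the deposited fold change held 0. Their median departure was 1.12 on the log2 scale, beside 0.55 over all genes of the table. All 15 had over 50% of the statistic outside the contrast.

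Among the core genes, 7 of 15 were in the table. Per3, which encodes a period repressor, had a deposited fold change of 0.09 ± 0.15 (SE) and an adjusted p of 7.00e-41. Its departure was 1.84 ± 0.13, so that the third diet differed 3.70-fold from the farther contrast diet. Ciart, a repressor of the BMAL1 complex, had the largest departure of the group, 3.58 ± 0.40, beside a deposited fold change of 0.40 ± 0.46. In linear terms its most distant diets differed 13.7-fold, at a mean normalized count of 99.9. On the activating side, Arntl, the gene of BMAL1, departed by 1.74 ± 0.24, with a deposited fold change of -0.42 ± 0.28. Npas2, a partner of BMAL1, departed by 2.08 ± 0.35 and had a deposited fold change of -0.22 ± 0.40. The repressors Per2 (1.00 ± 0.20) and Bhlhe41 (1.03 ± 0.24) departed less, and Nr1d2, the REV-ERBβ gene, least of the 7, by 0.48 ± 0.12. Since departures carry no direction, these values do not show whether the repressors and the activators moved in opposite ways. The hours at which the livers were taken are not stated in the sources used here, and their part in these values was not tested.

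Among the clock output genes 8 of 15 were in the table. Dbp, a transcription factor driven directly by the clock, departed by 1.45 ± 0.13 with a deposited fold change of 0.00 ± 0.14 (adjusted p 1.17e-26). Tef, of the same factor family, departed by 1.12 ± 0.09 with a deposited fold change of -0.02 ± 0.11. Usp2, which encodes a deubiquitinase, was the exception to the level contrast, at 0.68 ± 0.30 in the authors' deposited table. Its departure of 3.04 ± 0.26 corresponded to 10.4-fold between the farthest diets. Wee1, a kinase that holds back mitosis, departed by 1.44 ± 0.22. The remaining output genes were Por, the electron donor of microsomal P450 enzymes, Cyp2a5, a P450 that oxidises coumarin, Nampt, which makes NAD precursors, and Tspan4, a tetraspanin. Their departures were 1.09 ± 0.14, 0.88 ± 0.16, 0.67 ± 0.16 and 0.58 ± 0.12.

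Genes outside the clock lists shared this pattern. Upp2, a uridine phosphorylase, had a deposited fold change of 0.25 ± 0.17 and a departure of 1.82 ± 0.14 (adjusted p 1.10e-32). G6pc, the last enzyme of glucose release, departed by 1.51 ± 0.13 with a deposited fold change of 0.03 ± 0.15. Insig2, which holds the SREBP escort protein in the endoplasmic reticulum, departed by 0.72 ± 0.09 with a deposited fold change of -0.06 ± 0.10. Klf13, a transcription factor, departed by 0.88 ± 0.12 and its deposited fold change was -0.12 ± 0.14. Coq10b, Mtss1, a membrane-bending actin regulator, and Net1, a guanine nucleotide exchange factor, were singled out after their values were seen. They departed by 1.30 ± 0.15, 1.00 ± 0.10 and 0.82 ± 0.09, and each had a contrast interval that held 0.

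**Figure D2:**
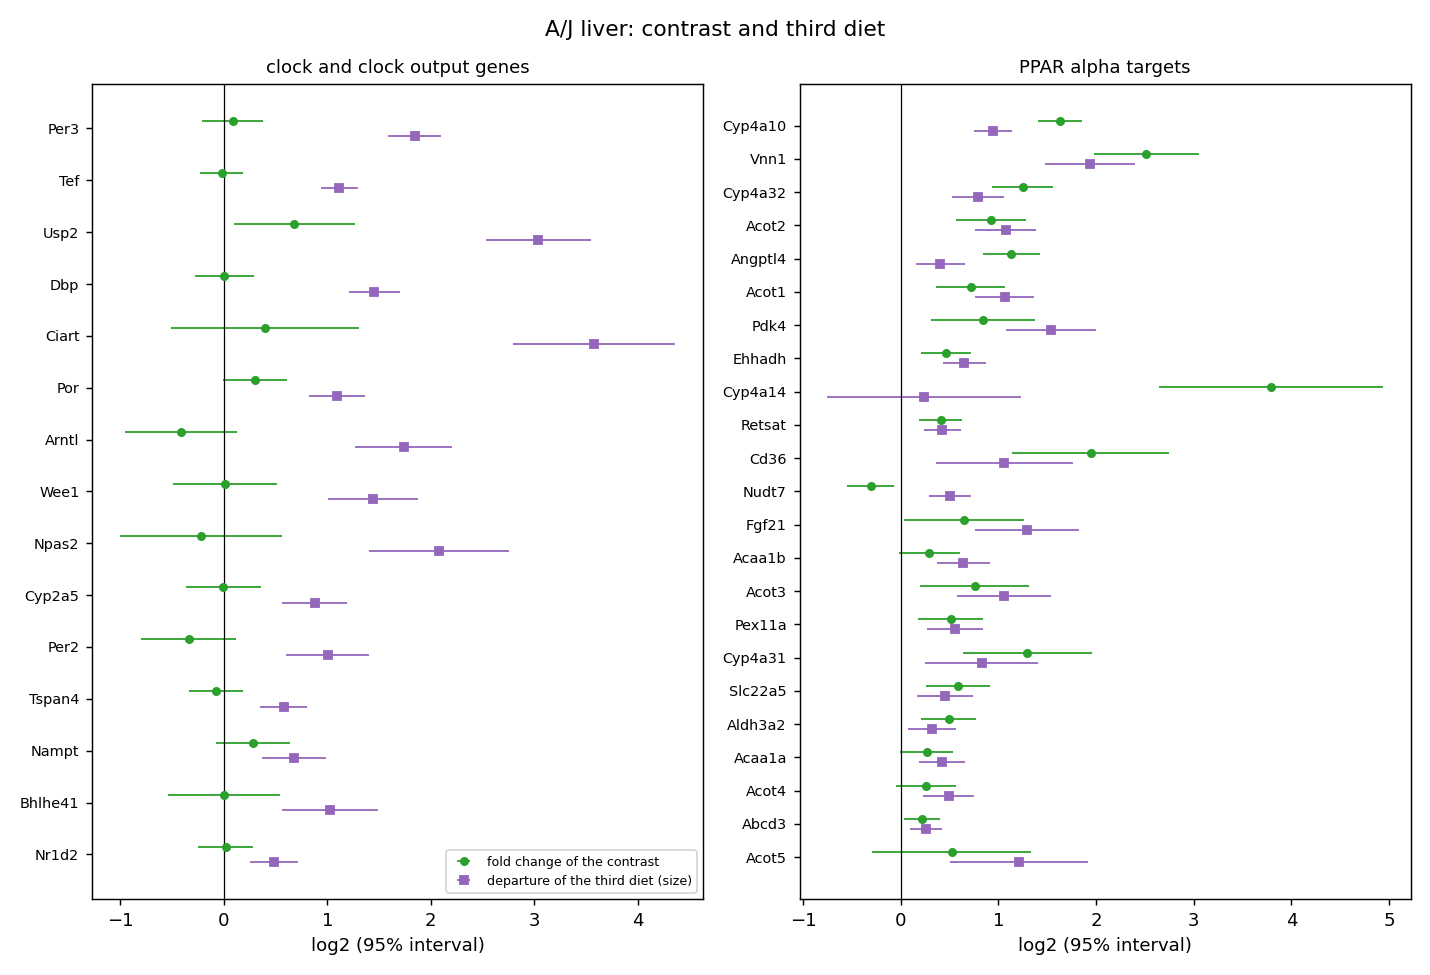
Deposited log2 fold changes (circles) and computed departures of the third diet (squares, size only), each with its 95% interval, for clock genes (left) and PPARα targets (right) of the A/J table. Clock fold changes lie around 0 with departures of 0.48 to 3.58, whereas most PPARα targets have both a positive fold change and a departure. Por, which is on both lists, is drawn with the clock genes.

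PPARα targets differed in both ways. Of 69 listed targets 25 were in the table (36.2%, beside 3.39% of all transcripts tested). Of the 25, 24 had a positive and 1 a negative deposited fold change. The interval left out 0 in 19 of the positive genes and in the negative gene, Nudt7. Their median deposited fold change was 0.59, beside 0.01 over all genes of the table. In 15 of the 25 genes over 50% of the statistic lay outside the contrast.

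The ω-hydroxylases, P450 enzymes that start the breakdown of fatty acids from the methyl end, had 4 of 6 members in the table. Cyp4a10 had a deposited fold change of 1.63 ± 0.11, or 3.09-fold, and an adjusted p of 5.67e-60. The third diet lay 0.13 ± 0.11 beyond the nearer and 1.76 ± 0.11 from the farther contrast diet, so it was not distinguished from the nearer. For Cyp4a32 the deposited fold change was 1.25 ± 0.16 and the distance to the nearer diet 0.16 ± 0.16. Cyp4a31 showed the same arrangement, at 1.30 ± 0.34 in the authors' deposited table. Cyp4a14 had the largest deposited fold change of the list, 3.79 ± 0.59, or 13.8-fold. Its departure was 0.24 ± 0.51, which placed the third diet between the contrast diets, apart from both. These genes are close copies that can share reads, so values of single members are uncertain.

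Genes of peroxisomal fatty acid oxidation and acyl-CoA handling had 10 of 18 members in the table. Ehhadh, the bifunctional enzyme of the peroxisomal pathway, had a deposited fold change of 0.47 ± 0.13 and a departure of 0.65 ± 0.11, and all 3 diets differed. Acaa1b and Acaa1a, the thiolases of the pathway, departed by 0.64 ± 0.14 and 0.42 ± 0.12, and their deposited fold changes of 0.29 ± 0.16 and 0.26 ± 0.14 were not distinguished from 0. Pex11a, which divides peroxisomes, had a deposited fold change of 0.51 ± 0.17. Nudt7, a coenzyme A diphosphatase of peroxisomes, had the opposite sign, at -0.31 ± 0.12 in the authors' deposited table, and departed by 0.50 ± 0.11. The label PPARα target groups these genes by earlier knowledge of the receptor, and receptor activity was not tested.

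The acyl-CoA thioesterases, which release free fatty acids from coenzyme A, stood together in 1 gene cluster. Acot1, in the cytosol, had a deposited fold change of 0.72 ± 0.18 and a departure of 1.06 ± 0.16. Acot2, in mitochondria, had 0.93 ± 0.18 and 1.07 ± 0.16, and Acot3, in peroxisomes, 0.75 ± 0.29 and 1.06 ± 0.25. In these 3 genes all diets differed and the third lay outside the range of the contrast diets, with 2.68- to 2.90-fold between the farthest diets. The other 2 members of the cluster in the table, Acot4 and Acot5, had level contrasts, 0.26 ± 0.16 and 0.52 ± 0.42, and departed by 0.49 ± 0.14 and 1.21 ± 0.36. Of 25 genes listed under mitochondrial oxidation 3 were in the table, Acot1, Acot2 and Aldh3a2. Aldh3a2, an aldehyde dehydrogenase, had a deposited fold change of 0.49 ± 0.14. As Acot1 acts in the cytosol, the list's name does not hold for all its members, and mitochondrial oxidation was not tested.

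Other PPARα targets included secreted factors and uptake proteins. Vnn1, a pantetheinase, had a deposited fold change of 2.51 ± 0.27 and a departure of 1.94 ± 0.24, and its farthest diets differed 9.16-fold (adjusted p 3.29e-30). Pdk4, which blocks pyruvate dehydrogenase and so spares glucose, had a deposited fold change of 0.84 ± 0.27 and departed by 1.54 ± 0.23. Fgf21, a liver hormone of fasting, had 0.65 ± 0.32 in the authors' deposited table and departed by 1.29 ± 0.27. Angptl4, an inhibitor of lipoprotein lipase, lay nearly on the contrast, at 1.13 ± 0.15, with the third diet 0.16 ± 0.15 from the nearer diet. Cd36, a fatty acid transporter, had a deposited fold change of 1.95 ± 0.41 and the third diet 0.09 ± 0.41 from the nearer diet. Retsat, a retinol saturase, had 0.41 ± 0.11 in the authors' deposited table with all 3 diets different.

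The lipid droplet list had 6 of 20 members in the table (30%, beside 3.39% of all transcripts tested). All 6 had positive deposited fold changes. Plin2, the main coat protein of liver droplets, had a deposited fold change of 0.47 ± 0.12 and departed by 1.04 ± 0.11. G0s2, an inhibitor of the lipase ATGL, departed by 1.19 ± 0.22 at a deposited fold change of 0.67 ± 0.25. Plin5, which tethers droplets to mitochondria, departed by 0.64 ± 0.11. In these 3 genes all diets differed, with the third outside the range of the contrast diets. The droplet-forming proteins Fitm1 and Fitm2 had deposited fold changes of 1.48 ± 0.38 and 0.52 ± 0.24, and Lipa, the lysosomal lipase, departed by 0.34 ± 0.09 with a level contrast.

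For lipoproteins, 7 of 29 listed genes were in the table (24.1%, beside 3.39% of all transcripts tested). Apoa4, an apolipoprotein of triglyceride-rich particles, had a deposited fold change of 0.65 ± 0.12 and departed by 1.09 ± 0.11 (adjusted p 5.98e-26). Pltp, which moves phospholipids between particles, departed by 1.09 ± 0.17, and Lipg, the endothelial lipase, by 1.12 ± 0.21. Angptl8, an insulin-responsive inhibitor of lipoprotein lipase, stood alone with a negative deposited fold change, -1.34 ± 0.14. None of its statistic lay outside the contrast, so the third diet was placed midway, 0.67 ± 0.14 from either contrast diet. Angptl4 and Angptl8, which both act on lipoprotein lipase, had opposite signs in the same contrast.

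Fatty acid and triglyceride synthesis had 9 of 29 members in the table (31.0%, beside 3.39% of all transcripts tested), 6 positive and 3 negative. The desaturases Fads1 and Fads2, which make long polyunsaturated fatty acids, had deposited fold changes of 0.37 ± 0.10 and 0.51 ± 0.13. Elovl5, the elongase of the same route, departed by 0.60 ± 0.12 with a level contrast. Scd1, which makes monounsaturated fatty acids, departed by 1.55 ± 0.31, a 3.10-fold difference between the farthest diets, at a deposited fold change of 0.17 ± 0.36. Srebf1, the gene of SREBP1, departed by 0.65 ± 0.15 at -0.26 ± 0.18 in the authors' deposited table. Mid1ip1, an activator of acetyl-CoA carboxylase, had the reverse arrangement, a deposited fold change of -0.99 ± 0.21 with the third diet 0.10 ± 0.21 from the nearer diet.

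No member of the 22 listed cholesterol synthesis genes passed the authors' DESeq2 threshold. Over all transcripts tested 3.39% passed it, and at that share a list of this length can lack a member. The count is therefore no result about the pathway. The table holds only transcripts under that threshold, so counts at an unadjusted p could not be given, and no other tool could be run. Among genes of sterol regulation, Insig2 passed it, with the departure given above. Bile acid genes had 4 of 22 members in the table (18.2%). Cyp7b1, an oxysterol hydroxylase, had a deposited fold change of -0.91 ± 0.21, and Nr0b2, the repressor SHP, one of 0.70 ± 0.23. Hsd3b7, an enzyme of bile acid synthesis, and Abcb4, the phospholipid exporter of bile, departed by 0.30 ± 0.08 and 0.37 ± 0.10.

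In glucose metabolism 2 enzymes of glucose output differed in unlike ways. G6pc showed the third diet apart, as given above, whereas Pck1, the cytosolic PEP carboxykinase, had a deposited fold change of 0.95 ± 0.17 and none of its statistic outside the contrast. The third diet of Pck1 was placed midway, 0.48 ± 0.17 from either contrast diet. G6pc and Pck1 were the 2 of 14 listed glucose output genes in the table (14.3%, beside 3.39% of all transcripts tested). For glycogen, Gys2, the liver synthase, departed by 0.44 ± 0.10 with a level contrast. Ppp1r3c, which brings a phosphatase to glycogen, had a deposited fold change of -0.74 ± 0.21 and departed by 0.87 ± 0.18. Irs1, an adaptor of the insulin receptor, departed by 0.62 ± 0.12 and was the 1 gene of 16 (6.25%) on the insulin signalling list.

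Genes known to be higher in male liver had negative deposited fold changes, and genes known to be higher in female liver positive ones. On the male list 27 of 43 genes were in the table (62.8%, beside 3.39% of all transcripts tested). All were negative, 26 with an interval that left out 0. On the female list 12 of 33 were in the table (36.4%), all positive, 11 with such an interval. On the male list most of the difference lay in the contrast, with a median of 6.66% of the statistic outside it, beside 80.3% over all genes of the table. Without the Mup genes, most of which are near-identical copies, the median was 16.8%, and 7 of the 12 other genes had under 25%. The sex of the mice is not given in the labels, and the share of males in each library was not tested.

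The Mup genes, which encode pheromone-binding proteins of urine, had 15 of 22 members in the table, with deposited fold changes between -1.46 and -0.49. In 14 of them under 25% of the statistic lay outside the contrast, and in 10 all 3 diets differed with the third in between. Mup20, the gene of the pheromone darcin, had the third diet placed midway, 0.50 ± 0.15 from either contrast diet. Mup17 had the largest statistic of the family, with a deposited fold change of -1.43 ± 0.13 and the third diet 0.12 ± 0.13 from the nearer diet (adjusted p 3.53e-29). Mup18, at -1.46 ± 0.48, was the 1 member over 25%. Most Mup genes are near-identical copies, so they share reads, are not independent, and single-copy values are uncertain.

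The other 12 genes of the male list had smaller contrasts, with a median of -0.58. Elovl3, a fatty acid elongase, had a deposited fold change of -0.94 ± 0.23, Cyp2u1, a fatty acid hydroxylase, one of -0.89 ± 0.18, and Hsd3b5, a steroid dehydrogenase, one of -0.87 ± 0.21. Gstp1, a glutathione transferase, had -0.80 ± 0.17 in the authors' deposited table and its copy Gstp2, not on the list, -0.78 ± 0.17. Cyp2c54 was the 1 member with a level contrast, and departed by 0.74 ± 0.12.

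On the female list, 4 genes of the Cyp3a cluster were in the table. Cyp3a44 had a deposited fold change of 1.11 ± 0.12 (adjusted p 1.25e-20), and its neighbours Cyp3a41a and Cyp3a41b, which are near-identical copies, 1.05 ± 0.21 and 1.07 ± 0.20. Cux2, a transcription factor of female liver, had 1.18 ± 0.45 in the authors' deposited table. Acot3 and Acot4 of this list are also PPARα targets. In the growth hormone pathway itself, 3 of 13 genes were in the table. Stat5a and Stat5b, the neighbouring genes of its signal transducers, had level contrasts, 0.00 ± 0.13 and -0.11 ± 0.11, and departed by 0.70 ± 0.11 and 0.44 ± 0.10.

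**Figure D3:**
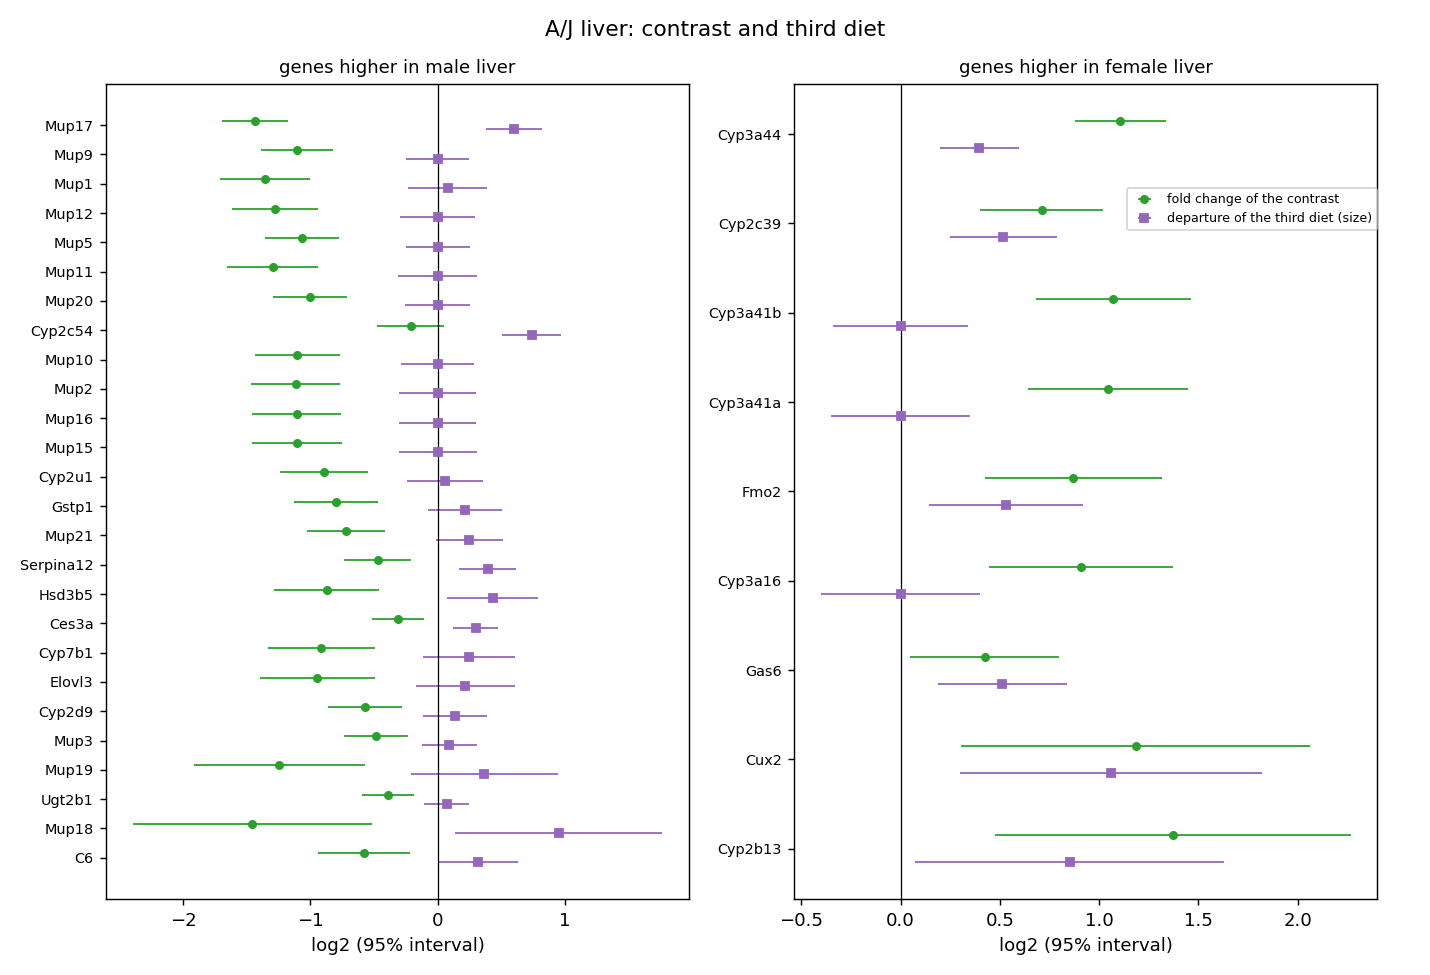
Deposited log2 fold changes (circles) and computed departures of the third diet (squares, size only) with 95% intervals, for genes known to be higher in male (left) or female (right) liver. All fold changes on the left are negative and all on the right positive, and squares at 0 are genes whose remainder of the statistic was 0 or below. Nudt7, Acot3 and Acot4 are drawn with the PPARα targets.

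Amino acid metabolism had 13 of 61 listed genes in the table (21.3%, beside 3.39% of all transcripts tested). Of the 13 genes 11 were negative, 9 with an interval that left out 0. Cps1, the first enzyme of the urea cycle, had a deposited fold change of -0.23 ± 0.10 and departed by 0.63 ± 0.09 (adjusted p 1.82e-10). Tdo2, which opens the ring of tryptophan, had -0.39 ± 0.11 in the authors' deposited table and a departure of 0.51 ± 0.09. Oat, an ornithine aminotransferase, and Cth, which makes cysteine, had deposited fold changes of -0.52 ± 0.14 and -0.43 ± 0.14. In these 4 genes all 3 diets differed, and the third lay outside the range of the contrast diets. Slc38a3, a glutamine transporter, had a level contrast and departed by 0.34 ± 0.08. The differences were small, with a median of 0.53 on the log2 scale between the farthest diets, beside 0.80 over all genes of the table.

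Phase 1 drug metabolism had 15 of 64 members in the table (23.4%, beside 3.39% of all transcripts tested), 11 negative and 4 positive. The interval of the contrast left out 0 in 5 of the negative and 2 of the positive genes, and 13 of the 15 had over 50% of the statistic outside the contrast. Members of the Cyp2c cluster differed in this. Cyp2c50 had a deposited fold change of -0.24 ± 0.10 and departed by 0.83 ± 0.08 (adjusted p 6.15e-20), and Cyp2c37 and Cyp2c54 departed by 0.77 ± 0.10 and 0.74 ± 0.12 with level contrasts. Cyp2c29 also had a level contrast and departed by 0.54 ± 0.11. Its neighbours Cyp2c39, known to be higher in females, and Cyp2c38 had positive deposited fold changes, 0.71 ± 0.16 and 0.72 ± 0.18. For Cyp2c38 10.1% of the statistic lay outside the contrast, and for Cyp2c29 97.4%. Cyp1a2, which oxidises caffeine, had -0.47 ± 0.11 in the authors' deposited table and departed by 0.63 ± 0.09. Cyp26a1, which degrades retinoic acid, departed by 1.72 ± 0.25 with a level contrast. Phase 2 enzymes and transporters had 6 of 48 members in the table (12.5%), 5 of them negative. Among the 5 were Slc22a7, an organic anion transporter, at -0.63 ± 0.13, and Nat8, an N-acetyltransferase, at -0.63 ± 0.19.

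The listed genes of interferon response and antigen presentation that were in the table all had positive deposited fold changes. Of 58 listed interferon genes 7 were in the table (12.1%, beside 3.39% of all transcripts tested), and all 7 intervals left out 0. Gbp3, a guanylate-binding protein, had a deposited fold change of 1.13 ± 0.25, Usp18, which removes ISG15 from proteins, one of 1.05 ± 0.22, and Zbp1, a nucleic acid sensor, one of 1.01 ± 0.33. The immunoproteasome subunits Psmb8, Psmb9 and Psmb10 had 0.35 ± 0.17, 0.56 ± 0.23 and 0.24 ± 0.12 in the authors' deposited table. Of 10 genes of MHC class II and dendritic cells, 4 were in the table: H2-Aa at 0.98 ± 0.25, H2-Ab1 at 0.98 ± 0.26, H2-Eb1 at 1.15 ± 0.45 and H2-DMa at 1.10 ± 0.36. For these 4 genes the third diet was not distinguished from the nearer contrast diet, at distances of 0.27 to 0.51. H2-DMb2, a class II gene of the table that was not on the list, differed from them. Its contrast was level, 0.22 ± 0.32, and 97.3% of its statistic lay outside the contrast. In whole liver, fewer cells of a type and less RNA per cell cannot be told apart.

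Markers of other cells came from short lists. Of 24 macrophage markers 3 were present (12.5%, beside 3.39% of all transcripts tested), all positive. Marco, a scavenger receptor, had a deposited fold change of 1.09 ± 0.41 and departed by 1.52 ± 0.35. Cd163, the haemoglobin receptor, and Cd5l, a protein secreted by macrophages, departed by 0.74 ± 0.18 and 0.63 ± 0.19. No listed marker of lymphocytes (20), neutrophils (10), endothelium (13), stellate cells and fibrosis (18), cholangiocytes (9) and muscle (10) passed the DESeq2 threshold. At a share of 3.39% lists this short can lack a member, so their absence is no result about these cells. Single genes were present from the adipocyte list (Car3, -0.21 ± 0.11), the erythroid list (Alas2, -0.59 ± 0.13) and the exocrine pancreas list (Cela1, -0.67 ± 0.19). The levels of markers outside the table, hepatocyte genes such as albumin included, were not analysed here, so the tissue label was not checked by level. The part of other cells in the interferon and MHC class II values was not tested.

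Of the stress lists, that of the endoplasmic reticulum had 1 of 39 genes in the table (2.56%). Heat shock had 3 of 25 (12%) and the immediate early genes 5 of 45 (11.1%), beside 3.39% of all transcripts tested. The list shares count genes, tested or not, so their base differs from that of the transcripts. Herpud1, a protein of endoplasmic reticulum degradation, was the gene of the first list. It had 0.33 ± 0.13 in the authors' deposited table and a departure of 0.54 ± 0.11. The chaperone Hspa8 and its helpers Hsph1 and Stip1 had level contrasts and departed by 0.52 ± 0.09, 0.66 ± 0.16 and 0.35 ± 0.10. Among the immediate early genes, Cdkn1a, the cell cycle inhibitor p21, departed by 1.40 ± 0.32, and Zfp36, which destabilises mRNA, had a deposited fold change of 0.78 ± 0.22. The acute phase list had 2 of 36 genes in the table (5.56%). These were Serpina3k, a protease inhibitor, at -0.54 ± 0.14 and Mt1, a metallothionein, at 0.69 ± 0.20 in the authors' deposited table. The complement and coagulation list had 2 of 43 (4.65%), C9 at -0.56 ± 0.15 and C6 at -0.58 ± 0.19. Both shares lie near the 3.39% of all transcripts tested, so these counts are no result about the 2 functions.

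Transcription and chromatin regulators were represented by a handful of genes. Cebpa, a master factor of hepatocytes, had a deposited fold change of -0.33 ± 0.10, Nr2f6, an orphan receptor, one of -0.37 ± 0.11, and Id3, an inhibitor of helix-loop-helix factors, one of -0.69 ± 0.25. The DNA methyltransferase gene Dnmt3b and Smarcd1, a subunit of SWI/SNF remodelling complexes, were the 2 of 55 listed chromatin modifiers (3.64%). Beside it, the 3.39% over all transcripts tested is a share of transcripts and not of genes. Dnmt3b departed by 1.05 ± 0.22 and Smarcd1 by 0.71 ± 0.18, with level contrasts. No gene of 97 listed for mitochondrial respiration passed the DESeq2 threshold. Of 85 ribosomal protein genes 1 did (1.18%), Rpl22l1, which departed by 0.57 ± 0.15.

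**Figure D4:**
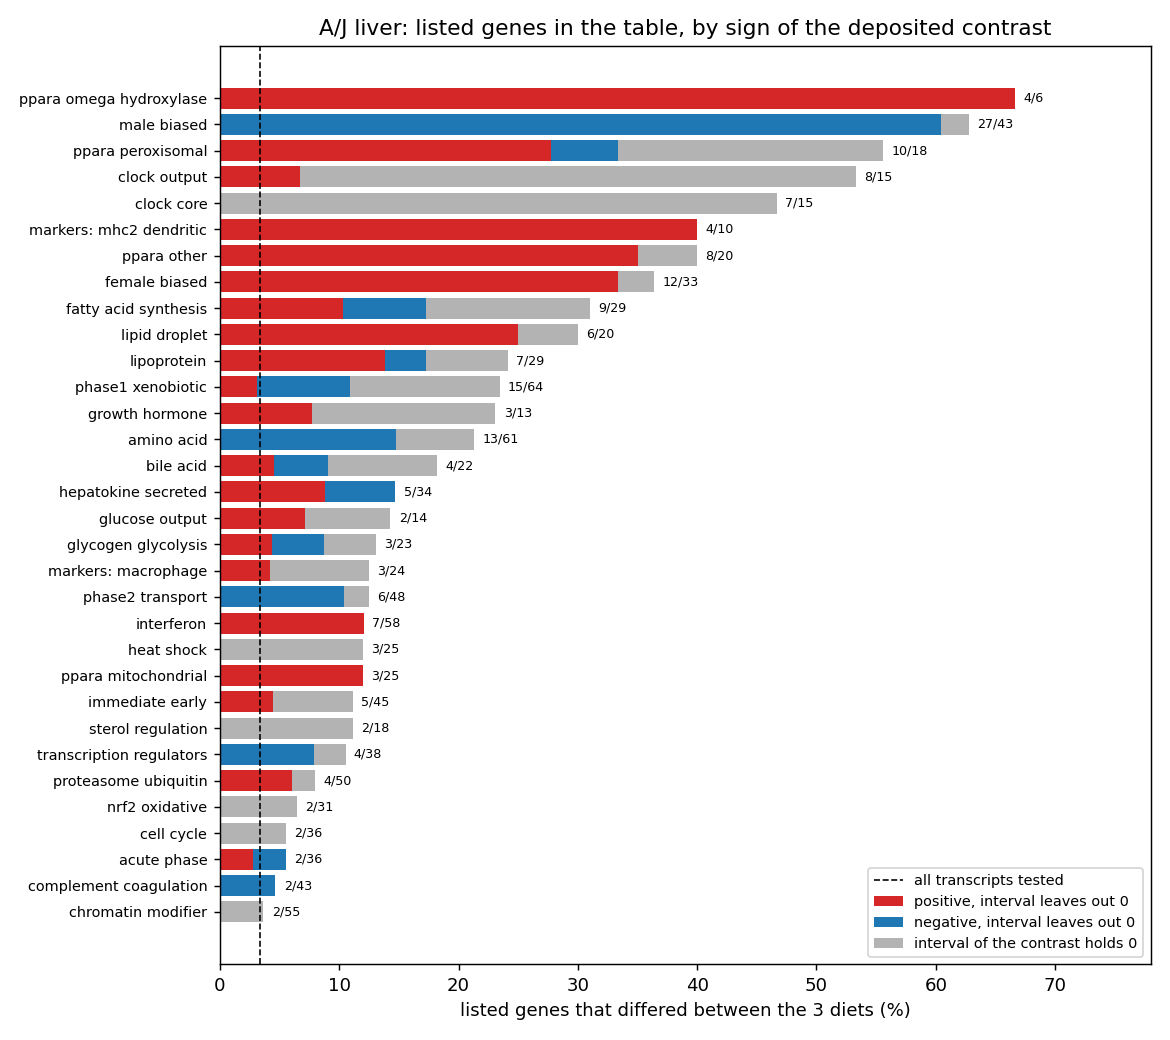
Share of each list's genes that were in the A/J table (horizontal axis, percent), split by the sign of the deposited contrast, for the 32 lists with at least 2 genes in the table. Numbers give genes in the table over genes listed. The dashed line marks the 3.39% of all transcripts tested. It counts transcripts, while the bars count genes, tested or not, so the line is only a rough guide. The lists of ω-hydroxylases, male liver genes and clock genes lie far to the right of the line. All lists were chosen with earlier results of these data known, so the shares are no test of enrichment. Without families of close copies the ω-hydroxylase list kept 0 genes and the male list 9.

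Of the 482 genes, 178 belonged to at least 1 list and 304 to none. The gene with the largest statistic, though not the largest fold change, was in none of the lists. Cyp4b1-ps2, a transcribed pseudogene of the Cyp4b family, had a deposited fold change of 5.11 ± 0.23, or 34.5-fold, and an adjusted p of 3.02e-179. For it the third diet lay outside the range of the contrast diets, 1.27 ± 0.23 from the nearer and 6.37 ± 0.23 from the farther. Stbd1, a glycogen-binding protein, and Crat, the carnitine acetyltransferase, were singled out after their values were seen. Their deposited fold changes were 0.84 ± 0.14 and 0.63 ± 0.12, with departures of 0.86 ± 0.12 and 0.89 ± 0.11. Enho, the gene of the peptide adropin, had -0.59 ± 0.19 in the authors' deposited table and departed by 0.81 ± 0.17. Lepr, the leptin receptor, had a deposited fold change of 1.17 ± 0.33 and departed by 1.53 ± 0.29, and it was the 1 gene whose transcripts spread over more than 0.25 on the log2 scale, from 0.56 to 1.17.

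The C57BL/6J table, made in the same way, listed 681 of 19658 transcripts (3.46%), or 455 genes. The strains shared 75 genes, 15.6% of the A/J genes and 16.5% of the C57BL/6J genes. Whether the contrast compares the same diets in both tables is not stated in the sources used here. Of 24 shared genes whose contrast interval left out 0 in both strains, 10 had the same and 14 the opposite sign. The third diet carried over 50% of the statistic in 72.2% of A/J and 55.6% of C57BL/6J genes, and this difference was not tested.

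By group, the clock lists had 15 genes in A/J and 12 in C57BL/6J, 7 of them shared. Arntl departed by 1.74 ± 0.24 in A/J and 1.22 ± 0.26 in C57BL/6J, with level contrasts in both. PPARα targets numbered 25 in A/J and 9 in C57BL/6J, with 4 shared. Vnn1 had a deposited fold change of 2.51 ± 0.27 in A/J and 0.15 ± 0.20 in C57BL/6J. It was in both tables, and departed by 1.94 ± 0.24 in A/J and 0.78 ± 0.18 in C57BL/6J. Fgf21 had deposited fold changes of 0.65 ± 0.32 in A/J and -2.97 ± 0.32 in C57BL/6J. Amino acid genes numbered 13 in A/J and 31 in C57BL/6J, and of the 7 shared, 6 were negative in A/J and 7 positive in C57BL/6J. Mup genes numbered 15 in A/J and 3 in C57BL/6J. An interaction between strain and diet was not tested, as values of single libraries were not analysed here.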

How the data were processed

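RNA-seq libraries of A/J liver, 2 per diet, were grouped by their titles. Bowtie2, TopHat, DESeq2 and the mouse build mm9 are listed, without versions or roles, in the submitters' processing notes. Per the file headers, the deposited table holds DESeq2 results per transcript: a signal (the mean normalized count over libraries), a log2 fold change with its SE, a score (the test statistic), a p-value and an adjusted p-value. The highest adjusted p-value in the deposited table is 0.0498. Each deposited p-value equals a chi-square value with 2 degrees of freedom at the statistic, which makes the test one over 3 diets, and the 20591 transcripts tested were worked out from p-value and adjusted p-value. No total count per library is given, so no counting interval was computed.

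No test between diets was run here: the design allowed for counts, and the deposited units did not. The statistic was divided into the squared ratio of fold change to SE and the remainder, set to 0 where negative (21 genes, lowest -9.65% of the statistic). The departure of the third diet was the square root of 0.75 times the remainder, times the SE, and its own SE was the square root of 0.75 times the SE. This division was tested on simulated data. Bounds at 25% and the classes of 3 diets were added after the data were seen. Of the transcripts 690 matched a RefSeq gene (GRCm38.p6, names only), and the transcript with the smallest p stood for a gene with several (126 genes). Python 3.11.15, pandas 2.3.3, numpy 2.4.6, scipy 1.17.1 and matplotlib 3.10.9 were used.

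The genes and the 48 gene lists were chosen with earlier results of these data known. Named genes were up to 6 per list by adjusted p, the 8 largest fold changes of each sign at or above the median level, the 8 largest parts outside the contrast, the 5 highest levels, and 5 of each sign class shared with C57BL/6J. Unnamed gene models were left out. Of the genes that the rule gives, the text names a part. A few genes are counted in the lists but are neither named nor drawn in the plots of intervals. Further list members appear where a list is described. Alternatives were a stricter adjusted p, another transcript per gene, a minimum level, and leaving out gene families, chosen by name, that hold close copies. Further ones were a wider interval, the sign alone, other bounds on the share, and matching by transcript.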

Additional observations from a re-analysis of the deposited data

How the results depend on the processing

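No paired analysis was possible because the deposited table holds no value per library, and for the same reason the planned replicate block, leaving out each replicate and TMM against DESeq2 size factors were not run. With an adjusted p threshold of 0.01 the 482 genes fell to 316, those with over 50% of the statistic outside the contrast from 348 to 229, those with the third diet apart from 227 to 138, and those shared with C57BL/6J from 75 to 29; a stricter threshold keeps fewer genes by construction. By sign alone 248 genes were positive and 234 negative, in place of 131 and 124. Counting genes whose fold change was under 1 SE gave 113 in place of 348. The other settings stayed within 1.5 times: the transcript with the highest level, a mean of at least 10 or (added after seeing the data) 100, a 99% interval (98 positive, 97 negative), a share over 80% (242), and transcripts in place of genes (699). Without gene families chosen by the start of their names, 437 genes were left. The ω-hydroxylase and MHC class II lists then had no member. The male list had 9 of 27 and the female list 6 of 12. These families hold close copies but also distinct genes, such as those of MHC class II, while the copies Xlr3a, Xlr3b and Xlr3c stayed in. At 0.01, 14 of 40 lists changed by over 1.5 times, among them peroxisomal genes (10 to 5), lipid droplet (6 to 3), female liver genes (12 to 7), amino acid genes (13 to 8) and MHC class II (4 to 2), while the clock lists kept 14 of 15 genes. With 2 libraries per diet, genes outside the table cannot be called alike across diets.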

Other observations

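Genes next to each other often appeared together in the table. Of the 463 protein-coding genes, 109 (23.5%) had a neighbour in the RefSeq gene order that was also listed, in 43 runs. Of these runs 14 held 3 or more genes, and in 39 all deposited fold changes had 1 sign. Runs beyond those described above included Fads3, Fads2 and Fads1, desaturase genes with deposited fold changes of 0.65 ± 0.21, 0.51 ± 0.13 and 0.37 ± 0.10. Scd2 and Scd3, neighbours of Scd1 in function, departed by 1.87 ± 0.51 and 1.67 ± 0.38 with level contrasts. The Nat8 run, of N-acetyltransferase genes, held 4 genes with deposited fold changes between -0.63 and -0.32. Members of such runs can share reads where they are copies, and the number of runs was not tested.

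Genes singled out here were chosen after their values were seen. Xlr3a, Xlr3b and Xlr3c, near-identical X-linked genes of the lymphocyte-regulated family, had deposited fold changes of 3.28 ± 0.46, 2.87 ± 0.46 and 3.13 ± 0.54, with the third diet placed midway. Their mean normalized counts were 151, 84.9 and 69.5. Hectd2os, a long noncoding RNA, and Hectd2, which it overlaps on the other strand by name, had deposited fold changes of -1.17 ± 0.18 and -1.14 ± 0.19, and reads of the pair cannot be told apart without strand. H1f1, a linker histone gene, had a deposited fold change of -7.64 ± 1.85 at a mean normalized count of 35.2, the widest error among these genes.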
